A study of Mus musculus with 30 samples.

Results

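Cxcl9, Cxcl10 and Cxcl11, the chemokines that interferons induce, and Cxcr3, the receptor they share, were followed through skin inflammation in WT and D6-deficient mice. Every probe set on the array that carries 1 of these 4 gene symbols was taken, which gave 6 of the 45037 probe sets and 4 of the 22121 genes measured. Whole shaved back skin was painted with 3 applications of 50 μM TPA, a phorbol ester that inflames skin, in acetone and 24 h apart, and RNA was measured on Affymetrix mouse arrays. The study asked how loss of D6, an atypical receptor that takes up inflammatory CC chemokines without signalling for migration, alters the course of this inflammation.

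The mice were female, of the same strain in every group and 8 to 12 weeks old, and differed by design only in genotype, treatment and time. WT skin and skin from D6-deficient mice, which lack D6 in every tissue, were each taken at days 1, 2, 4 and 6, counted from the last TPA application. Skin painted with acetone alone stands as day 0 in each genotype, although some labels of those arrays call it untreated. Every combination of genotype and day, 10 groups in all, was measured on 3 arrays labelled as biological replicates, which makes 30 arrays. With 3 arrays a group the estimates are coarse, and the smallest p that an exact comparison of 2 such groups can reach is 0.1. All levels and differences are on the log2 scale of the array intensity, where a difference of 1 is a change of 2-fold.

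CXCL9, CXCL10 and CXCL11 are small secreted proteins made by keratinocytes, endothelial cells, fibroblasts and myeloid cells that have met interferon. They bind CXCR3 on activated T cells, above all Th1 and cytotoxic cells, and on NK cells, and draw these cells into tissue. Interferon gamma drives Cxcl9 more than type I interferon does, while type I interferon and NF-kappaB can drive Cxcl10 strongly. In inflamed skin these chemokines are known from T cell diseases such as psoriasis and lichen planus.

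The gene for D6 is listed under its older symbol Ccbp2, with 3 probe sets. On 1 of them the 15 WT arrays ran from 4.15 through a median of 4.98 to 5.76, and the 15 D6-deficient arrays from 3.30 through 3.47 to 3.86. The genotypes did not overlap on this probe set, and every array lay on the side its label gives. On another the WT arrays ran from 5.14 to 6.26 and the D6-deficient arrays from 4.55 to 5.42, with overlap. On the remaining one the WT arrays ran from 6.69 to 8.54 and the D6-deficient arrays from 6.59 to 8.09. That last probe set separates nothing, and a probe set outside the deleted stretch checks no label; where the probe sets lie relative to it is not given in the sources used here. The tissue was checked against 7 skin markers, the keratins Krt5, Krt14, Krt1 and Krt10, loricrin, and the collagens Col1a1 and Col1a2. All 7 were bright, the dimmest being Krt1 with a mean of 12.07 over all arrays, so none of the markers of skin was absent.

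The genes of the 3 ligands lie together on mouse chromosome 5. In the RefSeq annotation of GRCm38.p6 the order is Ppef2, Naaa, Sdad1, Cxcl9, Art3, Cxcl10, Cxcl11, Nup54 and Scarb2, and Cxcr3 lies on chromosome X. That annotation lists Cxcl11 as a transcribed pseudogene. Promoter windows of 300 bases, from 250 bases before to 50 bases after the start of the gene, were matched by symbol for 3 of the 4 genes, Cxcl9, Cxcl10 and Cxcr3, and not for Cxcl11. The windows of Cxcl9, at chr5:92328030-92328329 on the minus strand, and of Cxcl10, at chr5:92348840-92349139 on the minus strand, are shown because these neighbouring ligands differed between the genotypes and reached their highest levels on different days in D6-deficient skin (both were highest at day 4 in WT skin). Both sequences are from RefSeq (GRCm38.p6), 5′ to 3′ along the gene, and capitals mark matches to the motifs searched.
Cxcl9: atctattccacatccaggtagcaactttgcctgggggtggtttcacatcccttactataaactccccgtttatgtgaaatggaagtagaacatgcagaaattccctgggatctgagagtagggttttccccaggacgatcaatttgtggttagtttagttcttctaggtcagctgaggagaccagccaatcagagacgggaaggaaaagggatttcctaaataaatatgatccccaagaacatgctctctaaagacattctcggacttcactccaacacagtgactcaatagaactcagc
Cxcl10: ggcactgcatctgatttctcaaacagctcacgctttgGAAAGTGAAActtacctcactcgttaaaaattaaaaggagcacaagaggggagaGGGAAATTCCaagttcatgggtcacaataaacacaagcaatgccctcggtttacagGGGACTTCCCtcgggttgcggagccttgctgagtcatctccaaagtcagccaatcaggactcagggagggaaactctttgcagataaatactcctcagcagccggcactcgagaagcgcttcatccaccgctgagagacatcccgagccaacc
The letters searched on both strands were GAAA followed by any 2 bases and GAAA again, the core of the element (ISRE) through which type I interferon acts, TTCNNNGAA, the core of the element (GAS) through which interferon gamma acts, and the NF-kappaB consensus. The Cxcl10 window holds 1 ISRE core match, which begins 213 bases before the start, and 2 NF-kappaB matches, which begin 159 and 103 bases before it, and none of these overlaps another. TTCNNNGAA has no match there, and the Cxcl9 and Cxcr3 windows have no match to any of the 3 motifs, which says only that these letters are not in these windows. Among all 32817 promoter windows, 3.43% hold the ISRE core, 8.29% hold TTCNNNGAA and 4.5% hold the NF-kappaB consensus. A match is a description of the sequence and shows no binding.

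Cxcl9, the ligand most dependent on interferon gamma, rose steeply at day 4 of inflammation in both genotypes and was back near its day 0 level by day 6. It has 2 probe sets, called a and b here, with means over all arrays of 8.64 and 5.36. On probe set a the WT arrays read 6.66, 7.19 and 7.68 at day 0, 6.84, 8.27 and 7.56 at day 1, then 7.35, 6.57 and 7.82 at day 2. They then read 11.20, 9.58 and 9.66 at day 4 and 7.73, 7.79 and 8.06 at day 6. The 3 WT arrays of day 4 lay above every other WT array, with replicate 1 well above the other 2, and the other days overlapped one another except day 6 with day 0. In D6-deficient skin Cxcl9 read 8.05, 7.96 and 8.46 at day 0, 8.72, 8.73 and 8.73 at day 1, then 9.24, 9.69 and 9.71 at day 2. It read 11.57, 12.69 and 12.19 at day 4 and 7.21, 7.76 and 8.48 at day 6. In this genotype each day up to day 4 lay above the day before without overlap, and day 6 overlapped with day 0 again. Between the genotypes, the D6-deficient arrays lay above all WT arrays at days 0, 1, 2 and 4 and mixed with them at day 6.

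Probe set b of Cxcl9 showed the same peak. Its WT arrays read 4.87, 4.75 and 4.39 at day 0, 3.97, 4.45 and 4.44 at day 1, 4.24, 3.78 and 4.50 at day 2, 7.56, 5.87 and 5.87 at day 4, then 4.67, 4.31 and 4.77 at day 6. Its D6-deficient arrays read 4.99, 4.72 and 5.04 at day 0, 4.89, 5.27 and 5.26 at day 1, 5.68, 5.68 and 5.73 at day 2, 8.43, 9.56 and 9.33 at day 4, then 4.26, 4.86 and 4.66 at day 6. Day 4 stood above all other days in each genotype, and the genotypes overlapped at days 0 and 6 and were apart at days 1, 2 and 4.

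Cxcl10, which type I interferon and NF-kappaB also induce, peaked earlier, at day 2, and did so in D6-deficient skin. The WT arrays read 5.86, 6.35 and 6.56 at day 0, 6.35, 7.17 and 7.06 at day 1, then 6.44, 5.88 and 6.89 at day 2. They read 7.54, 7.30 and 7.11 at day 4 and 6.90, 6.80 and 6.84 at day 6. WT levels moved within a narrow band, lowest at days 0 and 2 and highest at day 4. In D6-deficient skin Cxcl10 read 7.22, 7.14 and 7.14 at day 0, 8.08, 7.79 and 7.99 at day 1, then 9.73, 9.75 and 10.12 at day 2. It read 7.91, 7.35 and 7.75 at day 4 and 6.38, 6.59 and 7.18 at day 6. The 3 D6-deficient arrays of day 2 lay far above every other array of either genotype, and the genotypes overlapped only at days 4 and 6.

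Cxcl11, the ligand with the highest affinity for CXCR3 where it is made, has probe sets a and b with means of 5.13 and 3.24. Probe set b stayed between 3.00 and 3.56 on all 30 arrays and was left out of the tests, which needed a mean of at least 3.72. On probe set a the WT arrays read 4.89, 4.50 and 4.77 at day 0, 5.08, 5.30 and 4.72 at day 1, 5.08, 4.50 and 5.09 at day 2, 5.21, 5.13 and 5.11 at day 4, then 5.02, 5.14 and 5.03 at day 6. The D6-deficient arrays read 5.11, 5.13 and 5.15 at day 0, 4.90, 4.67 and 5.29 at day 1, 5.32, 5.39 and 6.75 at day 2, 4.90, 6.22 and 5.85 at day 4, then 4.55, 4.64 and 5.43 at day 6. Single D6-deficient arrays stood out, replicate 3 at day 2 and replicates 2 and 3 at day 4, while the other replicates of those days were near the WT arrays.

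Cxcr3 is the gene for the receptor, and which cells of this skin carried it was not measured. Its WT arrays read 7.12, 7.22 and 7.19 at day 0, 7.33, 7.33 and 7.34 at day 1, 7.62, 7.32 and 7.23 at day 2, 7.82, 8.14 and 7.81 at day 4, then 7.74, 7.39 and 7.19 at day 6. Its D6-deficient arrays read 6.32, 6.72 and 6.40 at day 0, 7.55, 7.67 and 7.36 at day 1, 7.80, 7.95 and 7.93 at day 2, 6.42, 7.61 and 7.74 at day 4, then 7.52, 7.09 and 7.37 at day 6. Cxcr3 was lowest in D6-deficient skin of day 0, below all WT arrays, and highest at day 2 in that genotype and at day 4 in WT skin. Replicate 1 of D6-deficient skin at day 4 was as low as the day 0 arrays and more than 1 log2 unit below the other 2 replicates. In whole skin, more CXCR3-bearing cells and more Cxcr3 RNA per cell cannot be told apart, and the same holds for every gene described here.

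**Figure D1:**
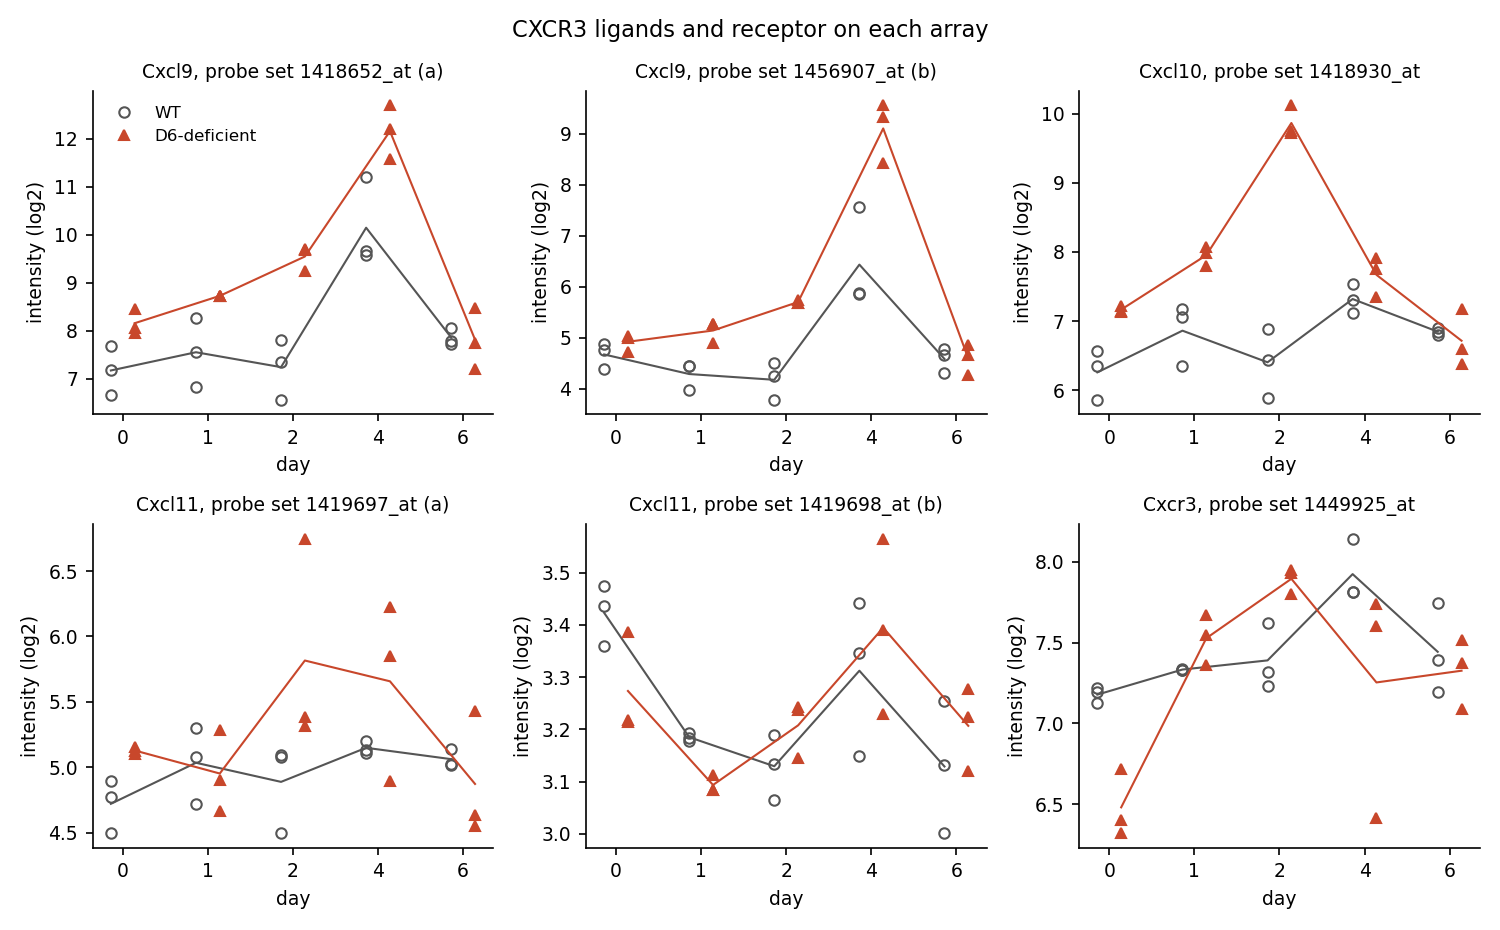
Level of each of the 6 probe sets (log2 intensity, vertical axis) on each array by day after the last TPA application (horizontal axis), with WT arrays as open circles, D6-deficient arrays as filled triangles and lines through the group means. The letters a and b name the probe sets of Cxcl9 and Cxcl11, of which Cxcl11 b stays between 3.00 and 3.56.

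The plot of levels by array and day shows these courses side by side. Ordered by group mean, Cxcl9 (probe set a) was highest in D6-deficient skin at day 4, followed by WT at day 4, D6-deficient at days 2, 1 and 0, WT at day 6, D6-deficient at day 6, and WT at days 1, 2 and 0. Neighbours in that order did not overlap between the first and second place and from D6-deficient day 2 down to D6-deficient day 0, and all other neighbours overlapped. Cxcl10 was highest in D6-deficient skin at day 2, followed by D6-deficient at days 1 and 4, WT at day 4, D6-deficient at day 0, WT at days 1 and 6, D6-deficient at day 6, and WT at days 2 and 0. Only the first place stood apart from its neighbour. For Cxcl11 (probe set a) every neighbour overlapped, from D6-deficient skin at days 2 and 4 down to WT skin at day 0. For Cxcr3 the order ran from WT at day 4 through D6-deficient at days 2 and 1, WT at days 6, 2 and 1, D6-deficient at days 6 and 4 and WT at day 0 to D6-deficient at day 0, and D6-deficient days 2 and 1, and WT and D6-deficient day 0, did not overlap.

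TPA was compared with day 0 within each genotype to ask when the ligands and receptor moved. Differences were tested with limma over 36029 probe sets and Benjamini-Hochberg adjustment, and a probe set was called where the adjusted p was under 0.05 and the change more than 3-fold. In WT skin Cxcl9 rose 7.83-fold at day 4 and Cxcl10 and Cxcr3 rose by less, and no member passed at another day. In D6-deficient skin Cxcl10 and Cxcr3 had risen by day 1, Cxcl9 by day 2, and Cxcl9 reached 15.9-fold over day 0 at day 4.

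In WT skin at day 4, 2 of the 5 tested member probe sets were called, both of Cxcl9, against 3.24% of all tested probe sets, and 4 passed the adjusted p alone, against 39.1%. The Cxcl9 difference was 2.97 on probe set a (SE 0.40, adjusted p = 3.33e-06) and 1.76 on probe set b (SE 0.32, adjusted p = 1.18e-04), and all 3 arrays of day 4 lay above those of day 0 on both. Without WT day 4 replicate 1, the second difference dropped to 1.20 (adjusted p = 9.31e-04) and 1 probe set was called. Under the methods' t-test with Benjamini-Hochberg adjustment probe set b did not pass (0.101, with 8e-05 the lowest over the other settings). Cxcl10 rose by 1.06 (SE 0.24, adjusted p = 9.76e-04) and Cxcr3 by 0.75 (SE 0.22, adjusted p = 0.00887), both without overlap. Cxcl11 differed by 0.43 and did not pass (adjusted p = 0.294, with 0.0303 in a fit of just the groups compared and up to 0.324 over the other settings). At days 1, 2 and 6 limma called 0 of the 5, against 1.77%, 1.90% and 1.34% of all. An unadjusted p under 0.05 was reached by 1, 0 and 1 of the 5, against 12633, 13258 and 12234 of all 36029. The member at an unadjusted p under 0.05 on day 1 was Cxcl10, at 0.60 (adjusted p = 0.0676, with 0.0537 to 0.308 over the other settings). It passed without WT day 0 replicate 3 (0.76, adjusted p = 0.0428), WT day 1 replicate 1 (0.86, 0.0174), WT day 2 replicate 2 (0.0464) or 3 (0.0498), or D6-deficient day 6 replicate 3 (0.0487). From day 4 to day 6 Cxcl9 fell by 2.29 on the log2 scale (SE 0.40, adjusted p = 1.88e-04) on probe set a, with no overlap, and under the methods' t-test with adjustment this did not pass (0.0923, with 1.9e-04 the lowest over the other settings).

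In D6-deficient skin limma called 0 of the 5 at day 1, against 2.49% of all. An unadjusted p under 0.05 was reached by 2 of the 5, against 16206 of all 36029. Those 2 were Cxcl10, which rose by 0.79 (SE 0.24, adjusted p = 0.0115), and Cxcr3, which rose by 1.05 (SE 0.22, adjusted p = 6.52e-04), both without overlap. At day 2, 1 of 5 was called, against 3.27%, and 3 passed the adjusted p alone, against 38.1%. Cxcl10 rose by 2.70 (SE 0.24, adjusted p = 7.8e-09), Cxcr3 by 1.41 (SE 0.22, adjusted p = 1.87e-05) and Cxcl9 (probe set a) by 1.39 (SE 0.40, adjusted p = 0.0084), each on 3 of 3 arrays above day 0. On probe set b Cxcl9 was 0.78 higher and did not pass (adjusted p = 0.059). It passed without WT day 4 replicate 1 (0.00973), 2 (0.0487) or 3 (0.0491) or D6-deficient day 4 replicate 1 (0.0408), and over the other settings the adjusted p ran from 0.00108 to 0.0713. At day 4, 2 of 5 were called, both of Cxcl9, against 4.01%, and 3 passed the adjusted p alone, against 41.1%. Cxcl9 was up by 4.00 on probe set a (SE 0.40, adjusted p = 3.19e-08) and by 4.19 on probe set b (SE 0.32, adjusted p = 4.36e-10), with no overlap. Cxcl10 was then 0.50 above day 0 and did not pass (adjusted p = 0.0945, from 0.0341 to 0.108 over the other settings). At day 6 limma called 0 of 5, against 2.13%, with 1 at an unadjusted p under 0.05, against 14849 of all 36029.

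Between successive days, Cxcl10 and Cxcl9 moved in opposite directions in D6-deficient skin from day 2 to day 4, and both fell from day 4 to day 6. From day 2 to day 4 Cxcl10 fell by 2.20 on the log2 scale (SE 0.24, adjusted p = 4.88e-07) while Cxcl9 rose by 2.61 (SE 0.40, adjusted p = 5.96e-05), both without overlap. From day 4 to day 6 Cxcl9 fell by 4.34 on the log2 scale (SE 0.40, adjusted p = 1.73e-08) and Cxcl10 by 0.95 (SE 0.24, adjusted p = 0.00334), both without overlap. Under the methods' t-test with Benjamini-Hochberg adjustment neither this Cxcl10 fall (adjusted p = 0.155) nor the Cxcl9 rise from day 2 (0.0616) passed, and the lowest over the other settings were 0.00234 and 5.45e-05. In WT skin Cxcl10 rose by 0.91 from day 2 to day 4 (SE 0.24, adjusted p = 0.0095, no overlap), a result that did not pass without WT day 2 replicate 2 (0.65, adjusted p = 0.0842) or WT day 4 replicate 1 (0.80, adjusted p = 0.0576), and under the methods' t-test with adjustment (0.194, the highest over the other settings, whose lowest was 0.00676; unadjusted p = 0.0442).

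Cxcl11 did not pass on any day in D6-deficient skin. It was 0.69 above day 0 at day 2 (SE 0.31, adjusted p = 0.0871) and 0.53 at day 4 (SE 0.31, adjusted p = 0.184). The day 2 value rested on replicate 3, without which it was 0.22 (adjusted p = 0.592), and it passed without replicate 1 (0.94, adjusted p = 0.0343) or replicate 2 (0.90, adjusted p = 0.0482), with 0.0699 to 0.333 over the other settings. The day 4 value passed without replicate 1 (0.91, adjusted p = 0.0222) and was 0.25 without replicate 2 (adjusted p = 0.608), with 0.132 to 0.374 over the other settings.

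Cxcr3 remained above day 0 in D6-deficient skin at day 4, by 0.77 (SE 0.22, adjusted p = 0.00637, with overlap), and at day 6, by 0.85 (SE 0.22, adjusted p = 0.00481, no overlap). The day 4 difference did not pass without replicate 2 (0.60, adjusted p = 0.0548) or replicate 3 (0.53, adjusted p = 0.0688) of that group, in a fit of just the groups compared (0.0939) and under the methods' t-test with adjustment (0.261) or without it (0.152), and the adjusted p over the other settings started at 0.00151. The day 6 difference did not pass under the methods' t-test with adjustment (0.0807, with 3.04e-04 the lowest over the other settings), while its unadjusted p was 0.00838. From day 2 to day 4 the Cxcr3 difference was -0.64 (SE 0.22, adjusted p = 0.047, no overlap), but it rested on the low replicate 1 of day 4, without which it was -0.22 (adjusted p = 0.444). Across the other settings its adjusted p ran from 0.017 to 0.451, and it was also over 0.05, up to 0.13, without any 1 of 19 other arrays. These were all replicates of WT days 0 and 1 and of D6-deficient days 1 and 2, replicates 1 and 3 of WT day 4 and D6-deficient day 0, replicates 2 and 3 of WT day 2, and replicate 2 of WT day 6.

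**Figure D2:**
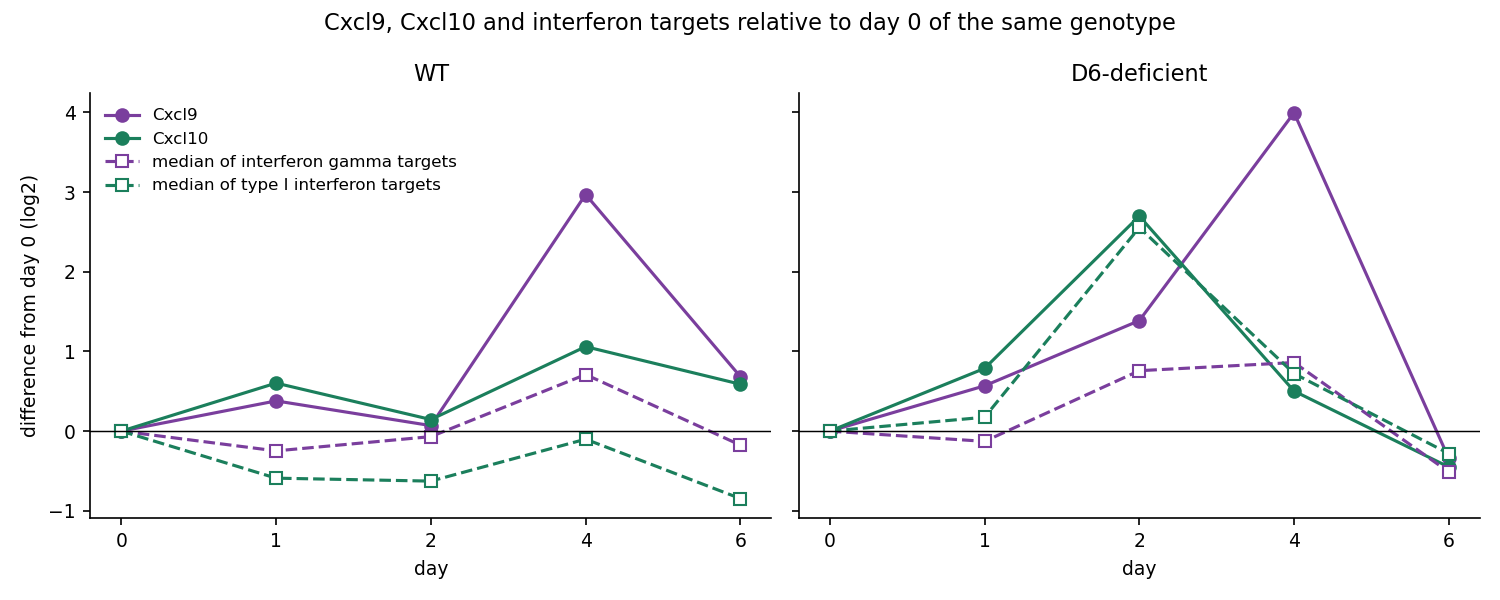
Difference from day 0 of the same genotype (log2, vertical axis) by day after the last TPA application (horizontal axis) for Cxcl9 (probe set a), Cxcl10 (both solid) and the medians (dashed) of the lists of targets mainly of interferon gamma and mainly of type I interferon, in WT and D6-deficient skin. In D6-deficient skin Cxcl10 stands at 2.70 and the type I list at a median of 2.56 at day 2, and Cxcl9 reaches 4.00 at day 4.

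D6-deficient and WT skin were compared on each day, which is the question the study was built on. Cxcl9 and Cxcl10 were both higher in D6-deficient skin at day 2, Cxcl10 by 11.01-fold and Cxcl9 by 4.93-fold on probe set a and 2.88-fold on probe set b. At day 4 the Cxcl9 difference was 4.03-fold on probe set a and 6.37-fold on probe set b, while Cxcl10 no longer differed beyond the spread between arrays. At days 0, 1 and 6 no member passed, and neither Cxcl11 nor Cxcr3 passed on any day.

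At day 2, 2 of the 5 member probe sets were called, against 0.572% of all tested probe sets, and 3 passed the adjusted p alone, against 4.45%. Cxcl10 was 3.46 higher (SE 0.24, 95% interval 2.97 to 3.95, adjusted p = 1.71e-09), Cxcl9 was 2.30 higher on probe set a (SE 0.40, 1.47 to 3.14, adjusted p = 8.26e-04) and 1.53 higher on probe set b (SE 0.32, adjusted p = 0.00472), each with all 3 D6-deficient arrays above all 3 WT arrays. Without WT day 2 replicate 3 the last difference was 1.69 and was called too, giving 3 probe sets. The methods' t-test with Benjamini-Hochberg adjustment called none of the 5 (adjusted p = 0.0968 for Cxcl10, 0.159 for probe set a and 0.131 for probe set b), and these were the highest adjusted p values over the other settings, whose lowest were 1.6e-09, 8.22e-04 and 0.00291. By the methods' t-test without adjustment, the number of members called was unchanged here and in all 23 comparisons. Cxcl11 was 0.93 higher (SE 0.31, adjusted p = 0.102, WT below every D6-deficient array), and ran from 0.46 without D6-deficient replicate 3 (adjusted p = 0.538) to 1.18 without replicate 1 (adjusted p = 0.0484), with 0.0868 to 0.496 over the other settings. Cxcr3 was 0.50 higher (SE 0.22, adjusted p = 0.246, no overlap) and passed without D6-deficient day 4 replicate 1 (0.50, adjusted p = 0.0362), while over the other settings its adjusted p ran from 0.0723 to 0.293.

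At day 4, 2 of the 5 were called, both of Cxcl9, against 0.0777% of all, and 2 passed the adjusted p alone, against 0.513%. The difference was 2.01 on probe set a (SE 0.40, 1.17 to 2.84, adjusted p = 0.0176) and 2.67 on probe set b (SE 0.32, 2.01 to 3.34, adjusted p = 5.7e-05), with all 3 D6-deficient arrays above all 3 WT arrays on both. The call on probe set a was lost without WT day 4 replicate 2 (1.73, adjusted p = 0.135), WT day 4 replicate 3 (1.77, 0.0906) or D6-deficient day 4 replicate 2 (1.74, 0.111), leaving 1 probe set called. In a fit of just the 6 arrays of that day it was lost as well (adjusted p = 0.159, and 0.0944 for probe set b), as under the methods' t-test with Benjamini-Hochberg adjustment (0.612 and 0.569), while the lowest over the other settings were 0.0152 and 3.91e-05. By the methods' t-test without adjustment, both were still called (0.0314 and 0.0156). Cxcl10 was 0.35 higher (SE 0.24, adjusted p = 0.701, with overlap) and Cxcl11 0.51 higher (SE 0.31, adjusted p = 0.648, with overlap). The Cxcl11 value depended on single arrays, with D6-deficient replicate 1 at 4.90, below all WT arrays, and replicates 2 and 3 at 6.22 and 5.85, above them. Cxcr3 was 0.67 lower in D6-deficient skin, a difference of -0.67 (SE 0.22, adjusted p = 0.21, no overlap), of which -0.25 remained without D6-deficient replicate 1 (adjusted p = 0.734, with 0.0575 to 0.776 over the other settings).

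At day 0 limma called 0 of the 5, against 0.122% of all. An unadjusted p under 0.05 was reached by 3 of the 5, against 5146 of all 36029 tested probe sets. Those 3 were Cxcl9 (probe set a) at 0.98 (SE 0.40, adjusted p = 0.247), Cxcl10 at 0.91 (SE 0.24, adjusted p = 0.0514) and Cxcr3 at -0.70 (SE 0.22, adjusted p = 0.111), each without overlap. How many of all tested probe sets were without overlap was not counted. Cxcl10 passed after a further quantile normalization (adjusted p = 0.0475) and with the replicate numbers as a block, with 0.245 the highest over the other settings. It also passed without WT day 1 replicate 1 (0.0357), WT day 2 replicate 2 (0.0362) or 3 (0.0379), D6-deficient day 4 replicate 1 (0.0457) or D6-deficient day 6 replicate 1 (0.0458), 2 (0.0466) or 3 (0.0338). Cxcr3 passed with the array sets of the hybridization controls as a covariate (-0.80, adjusted p = 0.0244, with 0.203 the highest over the other settings) and without D6-deficient day 4 replicate 1 (-0.70, adjusted p = 0.0114). Of the list genes described below, Krt5, Krt14 and S100a8 passed higher in D6-deficient skin at day 0, and Ccr9, Cd68 and Dpp4 passed lower. The summed intensity of the macrophage and monocyte markers was also lower there, without overlap. At day 1 limma called 0 of 5, against 0.0139%, and at day 6 it called 0 of 5, against 0.0167%. An unadjusted p under 0.05 was reached by 3 and 0 of the 5, against 2887 and 3015 of all 36029. At day 1 Cxcl9 was 1.17 higher (adjusted p = 0.426) and Cxcl10 1.09 higher (adjusted p = 0.0922), both with every D6-deficient array above every WT array. At day 6 the differences were -0.04 and -0.13.

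**Figure D3:**
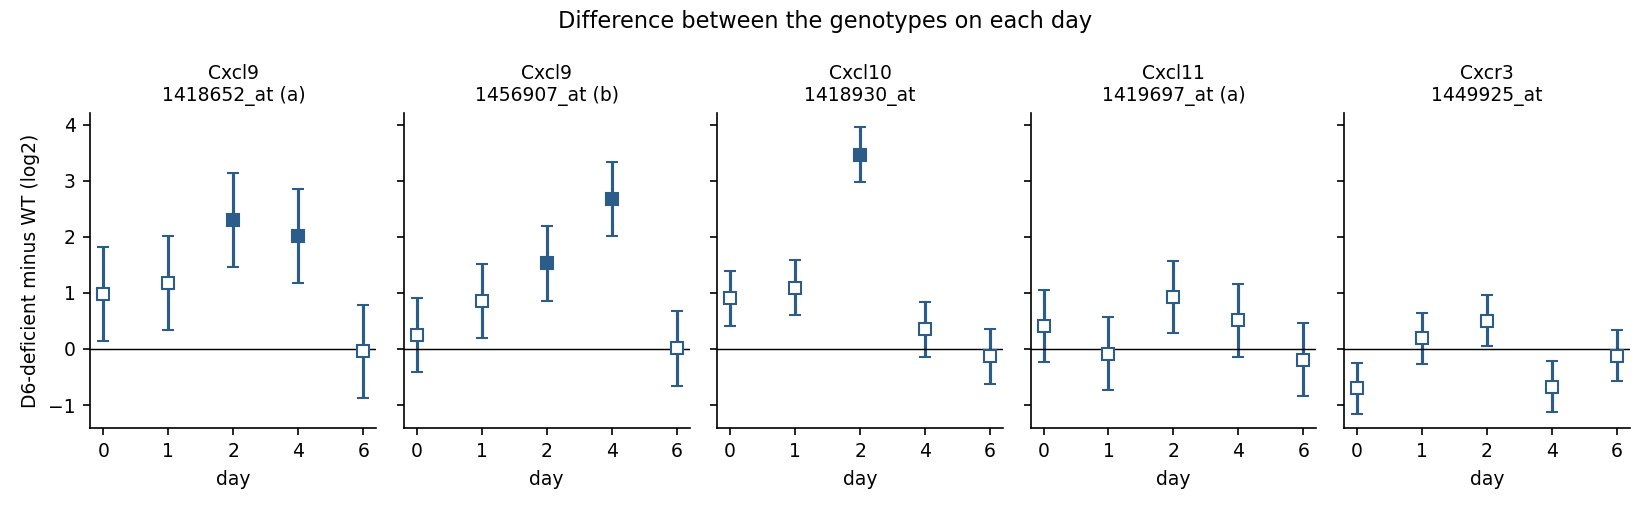
Difference between D6-deficient and WT skin (log2, vertical axis, bars give the 95% interval) on each day (horizontal axis) for the 5 tested probe sets, named a and b where a gene has more than 1, with filled points where the adjusted p was under 0.05. Cxcl10 stands highest at day 2, at 3.46, and both Cxcl9 probe sets are filled at days 2 and 4.

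The plot of genotype differences by day shows Cxcl9 (probe set a) and Cxcl10 above 0 already at day 0, where no member passed, and the change from day 0 in D6-deficient skin was also set against the change from day 0 in WT skin. At day 2, 1 of the 5 was called, against 1.11% of all tested probe sets. That was Cxcl10, with an interval of 1.86 to 3.25 on the log2 scale. Cxcr3 passed the adjusted p at 1.20 (2.30-fold, SE 0.31, interval 0.56 to 1.84, adjusted p = 0.0215), having started lower and ended higher in D6-deficient skin than in WT skin on all 3 arrays at each end. This Cxcr3 result was lost without WT day 2 replicate 3 (1.12, adjusted p = 0.054), D6-deficient day 0 replicate 1 (1.12, 0.0622) or replicate 3 (1.16, 0.0518), or D6-deficient day 2 replicate 2 (1.17, 0.0558), and over the other settings its adjusted p ran from 0.00239 to 0.029. Cxcl9 did not pass at day 2 on probe set a (1.32, adjusted p = 0.222) or on probe set b (1.28, adjusted p = 0.112). On probe set b it passed without WT day 4 replicate 1 (1.28, adjusted p = 0.0221) and in a fit of just the groups compared (0.00917, with 0.135 the highest over the other settings).

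At day 4, 1 of the 5 was called on this comparison, against 0.153% of all. Only 1 of the Cxcl9 probe sets, probe set b, passed, with an interval of 1.48 to 3.36 (adjusted p = 0.0172), and probe set a did not (adjusted p = 0.552, with 0.386 to 0.607 over the other settings). The call on probe set b was lost without WT day 4 replicate 2 (2.14, adjusted p = 0.0606), in a fit of just the groups compared (0.0875) and under the methods' t-test with Benjamini-Hochberg adjustment (0.186), with 0.013 the lowest over the other settings, and was kept by the unadjusted p of the methods (0.0214). So the rise of Cxcl9 from day 0 to day 4 was shown to differ between the genotypes on 1 probe set and not on the other.

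The interferons themselves could be followed only in part. The probe set of Ifng, the gene for interferon gamma, read between 3.10 and 3.98 on all 30 arrays and was too dim to be tested. Of the 18 interferon genes listed, 12 had a probe set. The tested ones are quoted by 3 probe sets, their tested probe sets of the highest mean, and 1 of the 3 is shared by several interferon alpha genes and has a mean intensity of 30.1. At day 2 limma called 0 of these 3 between the genotypes, against 0.572% of all tested probe sets. There were 0 at an unadjusted p under 0.05, and their median difference was 0.08. Ifnb1, the gene for interferon beta, had a mean of 3.83 over all arrays.

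Targets mainly of type I interferon, antiviral genes such as Ifit1, Isg15 and Mx1, were higher in D6-deficient skin at day 2, the day on which Cxcl10 was highest there. On that day 12 of the 14 tested were called higher in D6-deficient skin, 11 or 12 with any 1 array left out, and all 14 passed the adjusted p, against 0.572% called and 4.45% past the adjusted p among all tested probe sets. The median difference was 3.00, against -0.02 over all. Ifit1, which binds viral RNA, averaged 10.56 ± 0.37 (SD, n = 3) in D6-deficient skin at day 2 and 6.83 ± 0.40 in WT skin (difference 3.74, SE 0.36, adjusted p = 1.89e-07, no overlap). Isg15, a ubiquitin-like protein, averaged 10.53 ± 0.39 and 6.83 ± 0.20 (difference 3.70, SE 0.23, adjusted p = 9.92e-10, no overlap). Ifi44 showed the widest gap of the list, 4.31 (SE 0.51, adjusted p = 6.05e-06, no overlap). In the plot of differences from day 0, the median of this list and Cxcl10 lie side by side at day 2 in D6-deficient skin. The summed intensity of the list had a median of 17584 in D6-deficient skin at day 2 and of 2367 in WT skin. At day 4 limma called 0 of the 14 between the genotypes, against 0.0777% of all tested probe sets, and the median was 0.49. An unadjusted p under 0.05 was reached by 10 of the 14, against 3621 of all 36029. Against day 0, 10 of the 14 were called higher in D6-deficient skin at day 2 (median 2.56), against 3.27% of all tested probe sets. In WT skin 6 of the 14 fell and none rose at day 2 (median -0.63, with 9392 of all 36029 tested probe sets past the adjusted p in either direction), a count that was 2 without WT day 0 replicate 2, 3 without WT day 2 replicate 1 and between 0 and 7 over the other settings. At day 4 in WT skin, where Cxcl10 passed higher, 4 of the list passed higher and 2 lower (median -0.10), near the 39.1% of all tested probe sets that passed in either direction, and 2 passed higher without WT day 0 replicate 3. Whether Cxcl10 and this list share a course was not tested.

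Targets mainly of interferon gamma, such as the GTPases Irgm1 and Iigp1, were mostly above day 0 in both genotypes at day 4, the day of the Cxcl9 peak. The paper places Iigp1 among its type I interferon pathway genes, so this list is not particular to interferon gamma. Which interferon moved it was not tested. Against day 0, 6 of the 11 tested passed higher and 1 lower in WT skin at day 4 (median 0.71), and 9 higher and 1 lower in D6-deficient skin (median 0.86), where the 9 were 6 to 9 with any 1 array left out. Of all tested probe sets 39.1% and 41.1% passed in either direction in these comparisons, and 3.24% and 4.01% were called. Iigp1 was the gene called in each, at 1.68 in WT skin (SE 0.36, adjusted p = 6.7e-04, no overlap) and 2.04 in D6-deficient skin (SE 0.36, adjusted p = 7.07e-05, no overlap). The WT difference of Iigp1 was under 3-fold without WT day 0 replicate 1 (1.45) or WT day 4 replicate 1 (1.54), and 2 genes were called without WT day 0 replicate 3 or WT day 4 replicate 2. The WT fall of the 1 gene past the adjusted p, Ciita, was lost without WT day 0 replicate 2. In D6-deficient skin 2 were called without day 0 replicate 3 or day 4 replicate 2 and 3 without day 4 replicate 1. At day 2 in D6-deficient skin 9 of 11 passed higher, with a median of 0.76 and against 38.1% of all in either direction, and this count was 5 without D6-deficient day 0 replicate 1 or D6-deficient day 2 replicate 3. In WT skin at day 2 limma found 0 of 11 past the adjusted p, against 9392 of all 36029 tested probe sets, with 1 at an unadjusted p under 0.05. Between the genotypes at day 2, 6 of 11 passed, against 4.45% of all (5 to 7 with any 1 array left out, median 0.92). Called were 2 of 11, against 0.572% of all, Irgm1 at 1.62 (adjusted p = 1.47e-06) and Iigp1 at 1.67 (adjusted p = 0.00591), both without overlap. Neither was called without WT day 2 replicate 2 (Irgm1 1.42, Iigp1 1.32). At day 4 limma found 0 of 11 past the adjusted p between the genotypes, against 0.513% of all tested probe sets. There were 2 at an unadjusted p under 0.05, and the median was 0.35. The summed intensity of the list went from a median of 8328 at day 0 to 14858 at day 4 in WT skin, and from 8248 to 18947 in D6-deficient skin.

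Of 14 genes for interferon receptors and signalling, 6 passed higher in D6-deficient skin at day 2 (5 or 6 with any 1 array left out, median 0.36), against 4.45% of all tested probe sets in either direction. Called among them were Irf7, a transcription factor of the type I response, at 3.24 (SE 0.24, adjusted p = 3.45e-09), Usp18, which restrains the type I receptor, at 2.90 (SE 0.28, adjusted p = 2.22e-07), and Stat2 at 1.65 (SE 0.19, adjusted p = 4.01e-06), all without overlap. In this list the number called was 2 to 4 with any 1 array left out, and 0.572% of all tested probe sets were called with every array kept. Stat2 was under 3-fold without WT day 2 replicate 3 (1.55) or D6-deficient day 2 replicate 1 (1.58). At day 4 limma found 0 of 14 past the adjusted p between the genotypes, against 0.513% of all tested probe sets, with 2 at an unadjusted p under 0.05.

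The plot of gene lists between the genotypes sets these lists beside those described next, and shows the targets mainly of type I interferon far to the right at day 2 only.

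**Figure D4:**
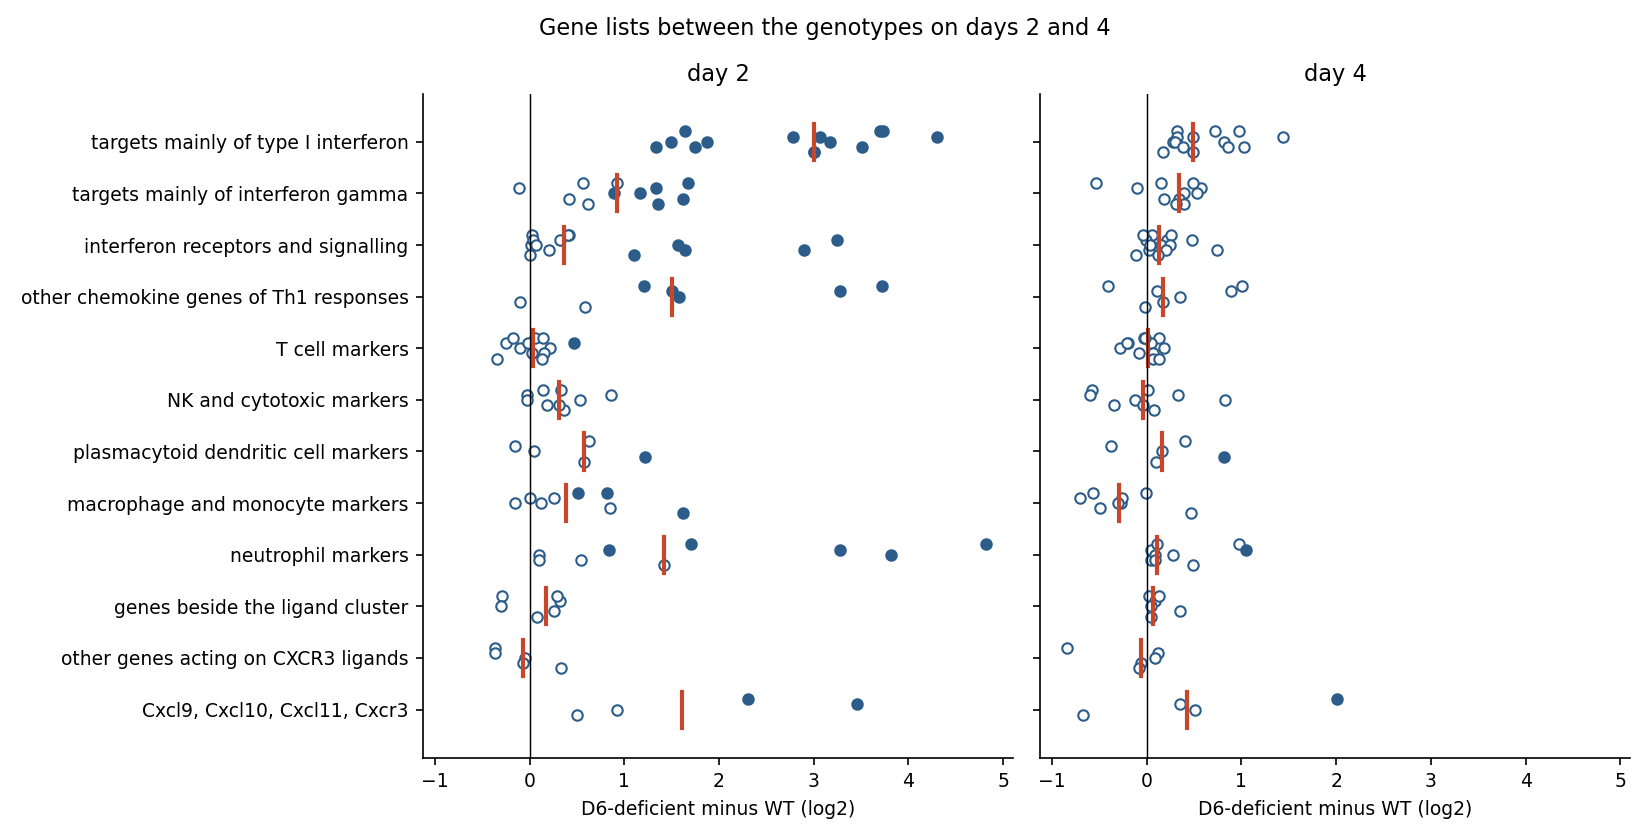
Difference between D6-deficient and WT skin (log2, horizontal axis) for the tested genes of 12 lists (vertical axis) at day 2 and day 4, with filled points where the adjusted p was under 0.05 and a red bar at the median of each list. The targets mainly of type I interferon have a median of 3.00 at day 2 and 0.49 at day 4.

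Markers of the cells that carry CXCR3 were set beside these results, and their part in them was not tested. For T cells all 12 listed markers were tested. Their summed intensity over days 0, 1, 2, 4 and 6 had medians of 1199, 2274, 2108, 1624 and 2084 in WT skin. In D6-deficient skin the medians were 1184, 2199, 2078, 1620.0 and 1777. Cd3d was the most abundant, and Tbx21, the gene for the Th1 factor T-bet, was near background with a mean of 4.29. Against day 0, 7 of the 12 rose at day 2 in WT skin (median 0.77) and 7 in D6-deficient skin (median 0.73), while 9392 and 13716 of the 36029 tested probe sets passed in either direction. Between the genotypes the median was 0.04 at day 2 and 0.02 at day 4. On these days limma called 0 of 12, against 0.572% and 0.0777% of all tested probe sets. An unadjusted p under 0.05 was reached by 1 and 0 of the 12, against 5590 and 3621 of all 36029. Cd4, the gene that passed at day 2, where 4.45% of all tested probe sets passed, was 0.47 higher (adjusted p = 0.0298). The Cd4 result was lost without any 1 of all WT day 2 replicates or D6-deficient day 2 replicates 2 and 3, with differences of 0.32 to 0.49 without 1 of these arrays.

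For NK and cytotoxic cells all 9 markers were tested. Their summed intensity over days 0, 1, 2, 4 and 6 had medians of 846, 1187, 1330.3, 2013 and 1054 in WT skin. In D6-deficient skin the medians were 831, 1102, 1385, 2235 and 636, the last from arrays at 626.9, 635.96 and 1340.0. Klrd1 was the most abundant and Eomes the dimmest, with a mean of 5.18. The sum was highest at day 4 in both genotypes, where Gzmb, the gene for granzyme B, was 3.43 above day 0 in WT skin (SE 0.32, adjusted p = 1.06e-08) and 3.51 in D6-deficient skin (SE 0.32, adjusted p = 4.56e-09), both without overlap. In each genotype 4 of the 9 markers passed higher at day 4, against 39.1% and 41.1% of all tested probe sets in either direction, and in WT skin 7 passed without WT day 0 replicate 2. Gzma was 1.70 above day 0 in WT skin (SE 0.41, adjusted p = 0.00188, no overlap) but under 3-fold without WT day 0 replicate 1 (1.48) or WT day 4 replicate 1 (1.54). Between the genotypes limma called 0 of 9 at day 2 and 0 at day 4, against 0.572% and 0.0777% of all tested probe sets, with medians of 0.31 and -0.04. An unadjusted p under 0.05 was reached by 1 and 2 of the 9, against 5590 and 3621 of all 36029.

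Markers of other cells that make or meet these chemokines were treated in the same way, and their part was not tested either. Of 5 markers of plasmacytoid dendritic cells, a major source of type I interferon, Spib passed higher in D6-deficient skin at day 2 (1.22, SE 0.17, adjusted p = 7.07e-05) and at day 4 (0.82, SE 0.17, adjusted p = 0.026), both without overlap, the latter lost without any 1 of 5 arrays of that day, namely all D6-deficient replicates and WT replicates 2 and 3. It was the 1 gene of the 5 to pass on each day, against 4.45% and 0.513% of all tested probe sets, and the medians of the list were 0.58 and 0.17. Their sum went through medians of 1783, 1329, 1213, 1075 and 1342 over days 0, 1, 2, 4 and 6 in WT skin and 1352, 1332, 1457, 1277 and 1158 in D6-deficient skin, led by Tcf4, while Pacsin1 was dim with a mean of 4.81. The day 0 sums ran from 1635.4 to 1857.5 on the WT arrays and from 1346.7 to 1477.8 on the D6-deficient arrays, without overlap. At day 0 Ccr9 of this list was called lower in D6-deficient skin, at -1.98 (SE 0.19, adjusted p = 5.51e-06, no overlap), against 0.122% of all tested probe sets. The value is of the brightest of its 4 tested probe sets, and the others are not given here. Whether it reflects the number of these cells was not tested.

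Of 8 markers of macrophages and monocytes, 3 passed higher at day 2, against 4.45% of all tested probe sets. The 1 called, against 0.572% of all, was Cd14 at 1.62 (SE 0.32, adjusted p = 0.00231, no overlap). The 3 became 1 without WT day 2 replicate 1 or 3 or D6-deficient day 2 replicate 2 or 3, and Cd14 was not called without WT replicate 1 or 3 or D6-deficient replicate 2. Their sum, led by Csf1r, went through medians of 26159, 18765, 21922, 29284 and 17687 over days 0, 1, 2, 4 and 6 in WT skin and 19305, 17731, 27321, 26117 and 19105 in D6-deficient skin. At day 0 these sums were 24031, 26159 and 26896 on the WT arrays and 17814, 19305 and 21766 on the D6-deficient arrays, without overlap. Cd68 was then lower in D6-deficient skin, at -0.83 (SE 0.20, adjusted p = 0.0382, no overlap), and did not pass without any 1 of the WT day 0 replicates or D6-deficient day 0 replicates 1 and 3. The dimmest, Itgam, still had a mean of 8.09.

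Of 9 tested markers of neutrophils, 5 passed higher at day 2 (4 to 6 with any 1 array left out, median 1.41), against 4.45% of all tested probe sets. Of the 9, 4 were called, against 0.572% of all. Among the 4 were the granule genes Ngp at 4.82 (SE 0.80, adjusted p = 4.85e-04, no overlap), Ltf at 3.82 (adjusted p = 0.00171) and Camp at 3.28 (adjusted p = 0.00124). Their sum, led by S100a9, went through medians of 1010.5, 21747, 45634, 51633 and 8714 over days 0, 1, 2, 4 and 6 in WT skin and 4239.8, 20895, 53570.0, 55333 and 10352 in D6-deficient skin. At day 0 single arrays set these medians, with sums of 4659.3, 884.27 and 1010.5 on the WT arrays and 4239.8, 2760.7 and 15098 on the D6-deficient arrays, and the genotypes overlapped. S100a8 was called higher in D6-deficient skin at day 0, at 2.41 (SE 0.58, adjusted p = 0.0352, with overlap), against 0.122% of all tested probe sets. The call was lost without replicate 2 or 3 of WT day 0 or replicate 1 or 3 of D6-deficient day 0. Without WT day 0 replicate 1 or D6-deficient day 0 replicate 2, 2 genes of the list were called. The D6-deficient sums of day 6 were 10352, 23201 and 7121.4, also far apart. Elane was near background with a mean of 4.70. At day 4 Cxcr2 was the member of this list that passed, against 0.513% of all tested probe sets, at 1.05 (adjusted p = 0.00792). This was lost without WT day 4 replicate 2 (0.75, 0.0714) or D6-deficient day 4 replicate 2 (0.95, 0.058).

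Other chemokines and receptors of Th1 recruitment were also compared. Of 7 tested, 5 passed higher in D6-deficient skin at day 2 (median 1.499), against 4.45% of all tested probe sets. The chemokines Ccl3 at 3.72 (SE 0.44, adjusted p = 5.86e-06) and Ccl4 at 3.28 (SE 0.27, adjusted p = 1.87e-08) were called, both without overlap, against 0.572% of all. At day 4 limma found 0 of 7 past the adjusted p, against 0.513% of all tested probe sets, with 2 at an unadjusted p under 0.05. Their summed intensity was highest at day 4 in both genotypes, with medians of 4843 in WT and 5769.7 in D6-deficient skin.

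Of 5 genes listed for other proteins that bind or trim chemokines, the peptidase Dpp4, the atypical receptors Ackr1 and Ackr3, the platelet chemokine Pf4 and D6 itself, limma found 0 past the adjusted p at days 2 and 4, against 4.45% and 0.513% of all tested probe sets. There were 0 and 1 at an unadjusted p under 0.05, with medians of -0.07 and -0.06. D6, described as a receptor for CC chemokines, is quoted by the Ccbp2 probe set on which the genotypes are not separated, so the count says nothing of its loss. At day 0 Dpp4 was lower in D6-deficient skin, at -0.88 (SE 0.20, adjusted p = 0.0241, no overlap), and did not pass without WT day 0 replicate 2 or 3 or D6-deficient day 0 replicate 1 or 3. Dpp4 at day 4 was at -0.84 (SE 0.20, adjusted p = 0.053, no overlap). It passed without D6-deficient day 4 replicate 2 (-0.99, adjusted p = 0.0461) or 3 (-0.98, 0.0397), D6-deficient day 0 replicate 3 (0.0442) or D6-deficient day 6 replicate 3 (0.0478).

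Of the 6 genes beside the ligand cluster, limma found 0 past the adjusted p on either day, with 2 and 0 at an unadjusted p under 0.05 and medians of 0.17 and 0.07, against 4.45% and 0.513% of all tested probe sets. By limma 0 of the 7 skin markers passed between the genotypes at day 2, with 0 at an unadjusted p under 0.05 (median 0.10), and at day 4 Krt5 passed lower, at -0.66 (SE 0.14, adjusted p = 0.0222, no overlap), within a median of -0.66. Krt5 was lost at day 4 without D6-deficient replicate 1 or 2 or WT replicate 1 or 2, and 2 markers passed without WT replicate 3. At day 0, 2 of the 7 passed higher in D6-deficient skin, Krt5 at 0.70 (SE 0.14, adjusted p = 0.00987) and Krt14 at 0.73 (SE 0.16, adjusted p = 0.0174), both without overlap, with 565 of all 36029 tested probe sets past the adjusted p in either direction. Neither passed once D6-deficient day 0 replicate 1 was left out, and 1 passed when replicate 3 of that group or any 1 WT day 0 array was left out. Against day 0 the summed intensity of the skin markers was lower at day 4, the day of the Cxcl9 peak, in both genotypes. The sum went from a median of 62391 at day 0 to 37838 at day 4 in WT skin and from 82243 to 28465 in D6-deficient skin. In WT skin 5 of 7 passed lower and 1 higher (3 lower without WT day 0 replicate 2, and 1 to 5 over the other settings), and in D6-deficient skin 6 passed lower, against 39.1% and 41.1% of all tested probe sets in either direction. How far this bears on the day 4 levels of the members was not tested.

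Whether the 4 genes varied together from array to array within a group was asked over all 30 arrays, after each array's group mean was taken away, for 10 pairs that also held Ifng. Cxcl9 and Cxcl10 had a Pearson r of 0.66 (permutation p = 0.00693, adjusted p over the pairs 0.0495) and a Spearman rho of 0.61 (permutation p = 0.0084, adjusted p = 0.042). Without the 2 arrays farthest from the median of Cxcl9, D6-deficient day 4 replicates 2 and 3, r was 0.83. These were picked by level and not by deviation. The replicate left in that group then has no deviation, so this does not check the arrays that deviate most. The hybridization controls divide the arrays into sets of 17 and 13, and within them, over groups with more than 1 array in the set, r was 0.91 over 13 arrays of the larger set and -0.26 over 8 arrays of the smaller. Those 8 are 4 pairs of arrays, each pair from 1 group, which is too few to tell whether the relation holds in the smaller set. Cxcl9 and Cxcl11 had an r of 0.49 (permutation p = 0.00991, adjusted p = 0.0495) and a rho of 0.55 (permutation p = 0.00823, adjusted p = 0.042), with 0.58 and 0.84 within the sets. Without the same 2 arrays r was 0.39 (adjusted p = 0.139) and did not pass. The remaining 8 pairs did not pass, with r from -0.17 to 0.54, and all 4 pairs with Ifng were among them. Tests were two-sided, over 100000 permutations within groups.

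**Figure D5:**
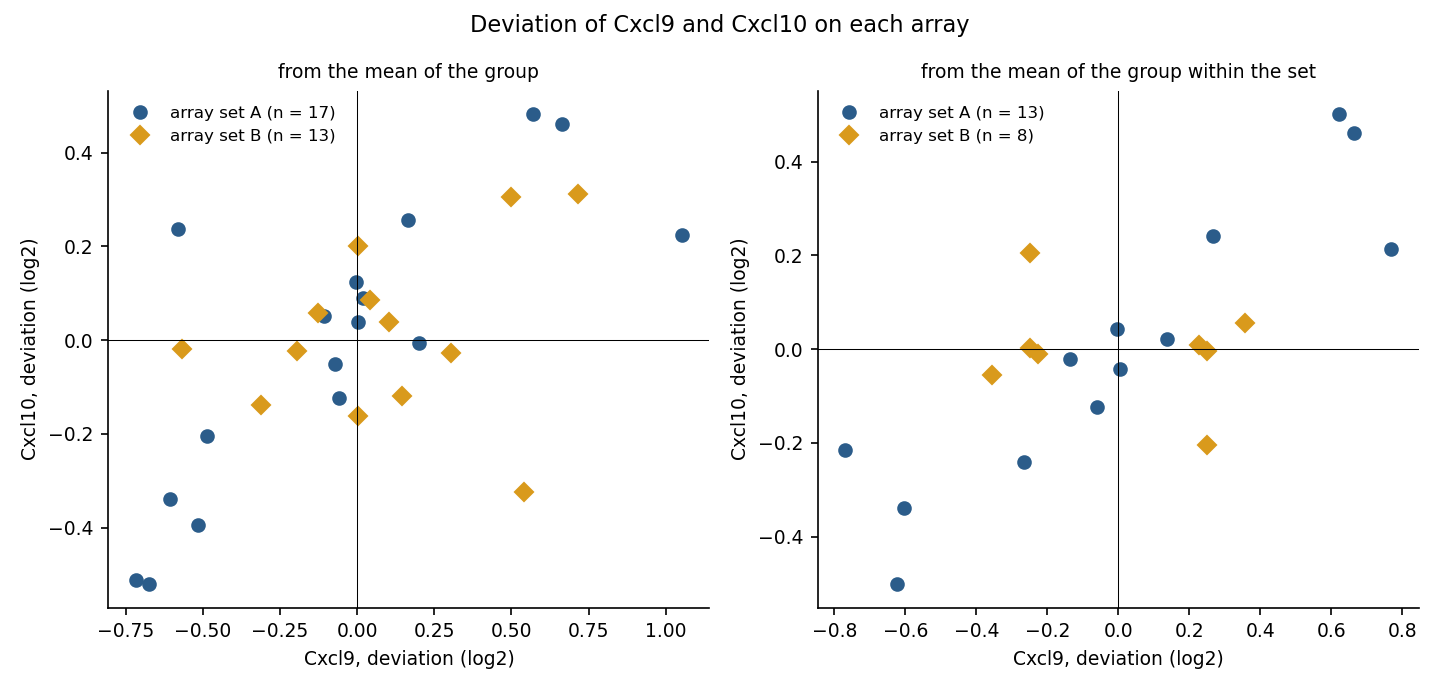
Deviation of Cxcl10 from its group mean (log2, vertical axis) against that of Cxcl9 (log2, horizontal axis), 1 point an array. On the left all 30 arrays are marked by hybridization set, and on the right deviations are from the group's mean within the set, leaving out groups with 1 array in a set, with r of 0.91 over 13 arrays and -0.26 over 8 arrays.

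The plot of deviations from the group mean shows both sets. Over the 10 group means, where the points share arrays of 1 experiment and no test was made, the genes most like each member by Pearson correlation were the following. For Cxcl9 they were Chst11 (0.98), Itga9 (0.97), Sbno1 (0.96), Hipk1 (0.96) and Arid3a (0.96), all highest in D6-deficient skin at day 4. For Cxcl10 they were Ms4a4c (0.97), Mx2 (0.94), Ltf (0.94), Morc3 (0.93) and Herc6 (0.93), all highest in D6-deficient skin at day 2. For Cxcl11 they were Exoc3l (0.95), Cd1d2 (0.93), Treml4 (0.93), 4930571B16Rik (0.93) and Syn2 (0.93). For Cxcr3 they were Vps33a (0.96), Wdr41 (0.96), Ftl1 (0.95), Steap3 (0.95) and Ctsb (0.95). By Spearman correlation only Chst11 and Sbno1, for Cxcl9, were again among the first 5. Among the members, r was 0.53 for Cxcl9 with Cxcl10 (Spearman rho 0.87), 0.77 for Cxcl9 with Cxcl11 (0.84), 0.83 for Cxcl10 with Cxcl11 (0.79), and 0.28, 0.46 and 0.29 for Cxcr3 with Cxcl9, Cxcl10 and Cxcl11 (rho 0.38, 0.47 and 0.35). The order of the ligand pairs thus depends on the kind of correlation.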

How the data were processed

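The deposited Raw Values matrix was used, in which the array intensities had been summarized per probe set by the authors before deposit, on a linear scale. It was taken to log2 without further normalization. The matrix holds 45101 probe sets, 64 of them controls that were dropped. From the other 45037, the 9008 (20%) with the lowest means over all arrays were not tested, which leaves 36029 with a mean of at least 3.72. Array medians ran from 5.64 to 5.80, no 2 arrays were identical, correlations within groups ran from 0.979 to 0.995, and the median within-group SD was 0.15 over the tested probe sets.

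Differences were estimated with limma (3.58.1, R 4.3.3), with 1 mean for each of the 10 groups and 1 pooled, moderated variance per probe set, so each interval and adjusted p draws on the spread of all 30 arrays. The adjustment was that of Benjamini and Hochberg over all tested probe sets in each of 23 contrasts. "Rose", "fell" and "passed" are used of an adjusted p under 0.05, and "called" where the change was also more than 3-fold, the threshold of the methods. The 8 comparisons with day 0 share the control arrays within a genotype, and the genotype comparisons relative to day 0 share the day 0 arrays of both. "Overlap" compares the ranges of the 3 arrays of each group.

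The member genes, and 132 genes in 14 lists, were chosen with earlier results of these data known. Of the list genes 124 were on the array and 120 were tested, each quoted by its tested probe set of the highest mean. The lists were the CXCR3 axis, interferon ligands, interferon receptors and signalling, targets mainly of interferon gamma, targets mainly of type I interferon, markers of T cells, NK and cytotoxic cells, plasmacytoid dendritic cells, macrophages and monocytes, neutrophils and skin, other proteins that bind or trim chemokines (D6 among them), other chemokines drawn on by Th1 cells, and genes beside the ligand cluster. List sums add the intensities of the tested genes. Genes named are those of the members, of the lists, and the 5 most like each member over the group means. Correlations of deviations were computed with numpy 2.4.6 and scipy 1.17.1, and figures with matplotlib 3.10.9.

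The member values and counts, the counts of the lists and the values of most list genes named were recomputed with each array left out, with all probe sets kept, with arrays centred on their medians, with a further quantile normalization, with the array sets of the hybridization controls as a covariate, with the replicate numbers as a block, with just the groups compared in the fit, and with the methods' t-test, unadjusted and adjusted. "The other settings" are these without the arrays left out. The mean of the 2 Cxcl9 probe sets was tested as well and is not among them. Correlations of deviations were recomputed only without 2 arrays and with the array sets removed.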

Additional observations from a re-analysis of the deposited data

Results flagged for a closer look

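Each of these values is the change from day 0 in D6-deficient skin minus the change from day 0 in WT skin, on the log2 scale, and each stood out because the genotypes differed in their response. For Cxcl10 at day 2 the value was 2.55, for probe set b of Cxcl9 at day 4 it was 2.42, and for Cxcr3 at day 2 it was 1.20.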

How the results depend on the processing

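Leaving out each array in turn moved the Cxcl9 difference (probe set a) between 2.44 and 3.25 for WT day 4 against day 0, between 3.73 and 4.29 for D6-deficient day 4 against day 0, and between 1.96 and 2.59 for the genotypes at day 2. Cxcl10 moved between 2.57 and 2.77 for D6-deficient day 2 against day 0, between 3.20 and 3.70 for the genotypes at day 2, and between 2.29 and 2.79 for the latter relative to day 0. Cxcr3 moved between 1.33 and 1.53 for D6-deficient day 2 against day 0. These kept their side of the threshold, and no result reversed.

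Others did not. Cxcl9 between the genotypes at day 4 ran from 1.73 to 2.54 with an array left out, was 2.01 with an adjusted p of 0.159 in a fit of just the groups compared, and 2.01 with 0.612 under the methods' t-test after adjustment. Under that same t-test the day 2 genotype difference was 2.30 (0.159) for Cxcl9 and 3.46 (0.0968) for Cxcl10. Cxcl11 between the genotypes at day 2 ran from 0.46 to 1.18 with an array left out, and Cxcr3 at day 2 relative to day 0 from 1.12 to 1.32. The cause was not tested. The correlation of Cxcl9 with Cxcl11 was 0.39 (adjusted p = 0.139) without 2 arrays, and the cause was not tested.

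The number of member probe sets called was 1 under the adjusted t-test and 4 with no fold threshold for WT day 4 against day 0 (1 to 2 with an array left out), and 3 with no fold threshold for D6-deficient day 2 against day 0. Between the genotypes it was 0 at day 2 under the adjusted t-test (2 to 3 with an array left out), and at day 4 it was 0 under that t-test and 0 in a fit of just the groups compared (1 to 2 with an array left out). The cause was not tested.

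The replicate numbers were also entered as a block. Same-numbered arrays of different groups were no more alike (median r of deviations -0.0097 over 135 pairs) than others (0.00785 over 270 pairs), so no pairing by number was seen. Of 115 member values 112 kept their label under the block. Cxcl10 between the genotypes at day 0 (0.91, adjusted p = 0.0439) and Cxcl11 in D6-deficient skin from day 4 to day 6 (-0.78, 0.0497) passed under it, and Cxcr3 in D6-deficient skin from day 2 to day 4 (-0.64, 0.0542) did not.

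With the mean of both Cxcl9 probe sets in place of probe set a, all 23 values kept their label (between the genotypes at day 4, 2.34 with an adjusted p of 7.03e-04).

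With 3 arrays a group, values near the threshold depend on single arrays. Probe set b of Cxcl11 and the probe sets of Ifng and Ifnb1 lie near background, where little change can be seen. Whole skin does not separate cell numbers from RNA per cell, and RNA levels say nothing of the chemokine proteins.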
